A study of Mus musculus with 21 samples.

Results

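The miR-29 family consists of miR-29a-3p, miR-29b-3p, and miR-29c-3p, mature miRNAs that share a seed, the stretch near the 5′ end through which a miRNA recognizes its targets. The family is best known for repressing mRNAs of the extracellular matrix, collagens in particular, and those of the DNA methyltransferases. Its members are made from a pair of clusters on different chromosomes, and miR-29b-3p is made from both. They are also known to differ outside the seed, where the 3′ end of miR-29b carries a nuclear-import element and where pairing to the *Nrep* (libra) transcript directs decay of miR-29b. The members were chosen by name, and the 3 were found among 1909 miRNA names counted in a young cohort and among 1841 counted in an older cohort.

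The data are small-RNA-seq of pituitaries from female mice with a *Zeb1* knock-in allele whose 3′ UTR carries point mutations in the predicted sites of miR-200a/b. The study asked whether the levels of miR-200a/b change in these pituitaries, and the libraries count the other miRNAs as well. Pituitaries of homozygotes (*Zeb1 200M*), heterozygotes (*Zeb1 200H*), and WT mice were compared within each cohort. All groups were C57BL/6J females collected at proestrus, and the mutant allele came from a pair of embryonic stem cell clones, which the labels do not assign to libraries. The young cohort held virgin mice of 8 to 12 weeks, with 3 WT, 4 *Zeb1 200H*, and 4 *Zeb1 200M* libraries. The older cohort held mice of 28 to 36 weeks that had been through a breeding trial, with 4 WT, 3 *Zeb1 200H*, and 3 *Zeb1 200M* libraries. Most homozygous females of that trial bore no litter, whereas heterozygotes were fertile. Litter history thus went with genotype in the older cohort, and the labels do not give it for single mice. Its part in the older values and in differences between the cohorts was not tested. Library protocol, sequencer, and miRNA dictionary changed together with age, so levels were compared between genotypes within a cohort and not between cohorts.

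Levels are given as CPM, the count of a miRNA scaled to the total miRNA count of its library. Young libraries held between 8502878 and 10806313 miRNA counts, except WT replicate 1 with 3816917. Older libraries held between 60037 and 191650. The lowest counts of miR-29a-3p, miR-29b-3p, and miR-29c-3p were 121576, 69840, and 48935 in the young cohort, and 3831, 2347, and 1716 in the older cohort. Counting error at these lowest counts (exact Poisson interval, 95%) was at most 0.887% of the value in the young and 4.76% in the older cohort. Fold changes are from edgeR fits across all miRNAs of a cohort's tables, scaled by the trimmed mean of M-values (TMM), which sets the bulk of miRNAs to no change. A miRNA was called when its P value, adjusted over all miRNAs tested, was below 0.05.

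Young WT replicate 1 stood apart. TMM gave it a factor of 0.616, and the other young libraries 0.943 to 1.12. Its 3 most abundant miRNAs took 36.9% of counts, against 24.5% to 28.1%. For several results below the value without this library is given as well.

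The members were identical over their first 9 bases, with the seed (bases 2 to 8) in capitals below, and they are shown because reads are assigned to a member by the few bases that follow.
miR-29a-3p: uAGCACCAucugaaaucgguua
miR-29b-3p: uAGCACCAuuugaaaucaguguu
miR-29c-3p: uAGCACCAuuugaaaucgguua
These are RefSeq sequences of GRCm38.p6. Counted from 1 at the 5′ end, miR-29a-3p and miR-29c-3p differed by C10U alone, whereas miR-29b-3p and miR-29c-3p differed by A18G, G21U, and U22A and in length, with 23 nt against 22 nt. The authors assigned reads by their first 19 nt in the young and 18 nt in the older cohort. Within these windows miR-29b-3p and miR-29c-3p were separated by A18G only, the last base of the older window, and no other listed miRNA with a reference sequence came closer to a member than 6 bases. Whether the older match allowed mismatches is not stated. If it did, reads of members that differ by 1 base may have been counted together, so older values of single members and their ratios depend on this more than the older family sum. A reference sequence was found for 1596 of the 1909 young and 1573 of the 1841 older names, which held 83.3% and 85.3% of counts. Among these, only the 3 members carried the miR-29 seed.

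On chromosome 6 of GRCm38, the hairpins *Mir29a* (ENSMUSG00000065610; 31062660 to 31062747) and *Mir29b-1* (ENSMUSG00000065604; 31063023 to 31063093) lay on the minus strand within 434 bp. *Mir29b-1* overlapped the 3′ end of the lincRNA *Gm27019*, on the same strand, by 2 bases, and the annotation placed *Mir29a* in no other gene. On chromosome 1, *Mir29b-2* (ENSMUSG00000065412; 195037040 to 195037120) and *Mir29c* (ENSMUSG00000065548; 195037547 to 195037634) lay on the plus strand within 595 bp. Both fell in exon 3 of a transcript of the noncoding gene *A330023F24Rik* and, on the opposite strand, faced exon 11 of *Cd46*, in its 3′ UTR. Mature miR-29b-3p had the same sequence from *Mir29b-1* and *Mir29b-2*, so its counts could not be split between the clusters.

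miR-29 was among the most abundant seeds of the pituitary. In WT libraries of the young cohort the family sum was 62970, 101145, and 97705 CPM, and in those of the older cohort 117473, 120672, 112102, and 137615 CPM. When counts were summed by seed, with names that lacked a reference sequence left on their own, miR-29 was at rank 4 in all 3 young WT libraries and at rank 2 or 3 in the older ones. In *Zeb1 200H* pituitaries the sum was 132998, 126817, 134547, and 129343 CPM in the young and 135096, 131486, and 154016 CPM in the older cohort. In *Zeb1 200M* pituitaries it was 144509, 128952, 142541, and 119814 CPM in the young and 155832, 152315, and 155313 CPM in the older cohort, which was 15.6%, 15.2%, and 15.5% of counts. Every young mutant library was above every young WT library, and every older *Zeb1 200M* library was above every older WT library, whereas older *Zeb1 200H* overlapped older WT because WT replicate 4 was high. Its seed was at rank 2 in all young mutant and older *Zeb1 200H* libraries and at rank 1 or 2 in older *Zeb1 200M* libraries.

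Part of this separation followed the scaling. After division by the TMM factor, young WT libraries held 102288, 107247, and 99664 CPM of miR-29, still below the lowest mutant library, at 112279 CPM. In the older cohort, *Zeb1 200M* libraries held between 142760 and 145489 scaled CPM, inside the WT range of 122246 to 154096. Scaling by library totals in place of TMM moved the median change of all miRNAs upward by 0.34 log_2_ units in young homozygotes and 0.29 in young heterozygotes relative to WT, and by 0.23 and 0.17 in the older ones. The fold changes below are therefore relative to the bulk of miRNAs. Which cells account for any change cannot be read from these libraries, because in whole pituitary fewer cells of a type and less RNA per cell cannot be told apart.

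**Figure D1:**
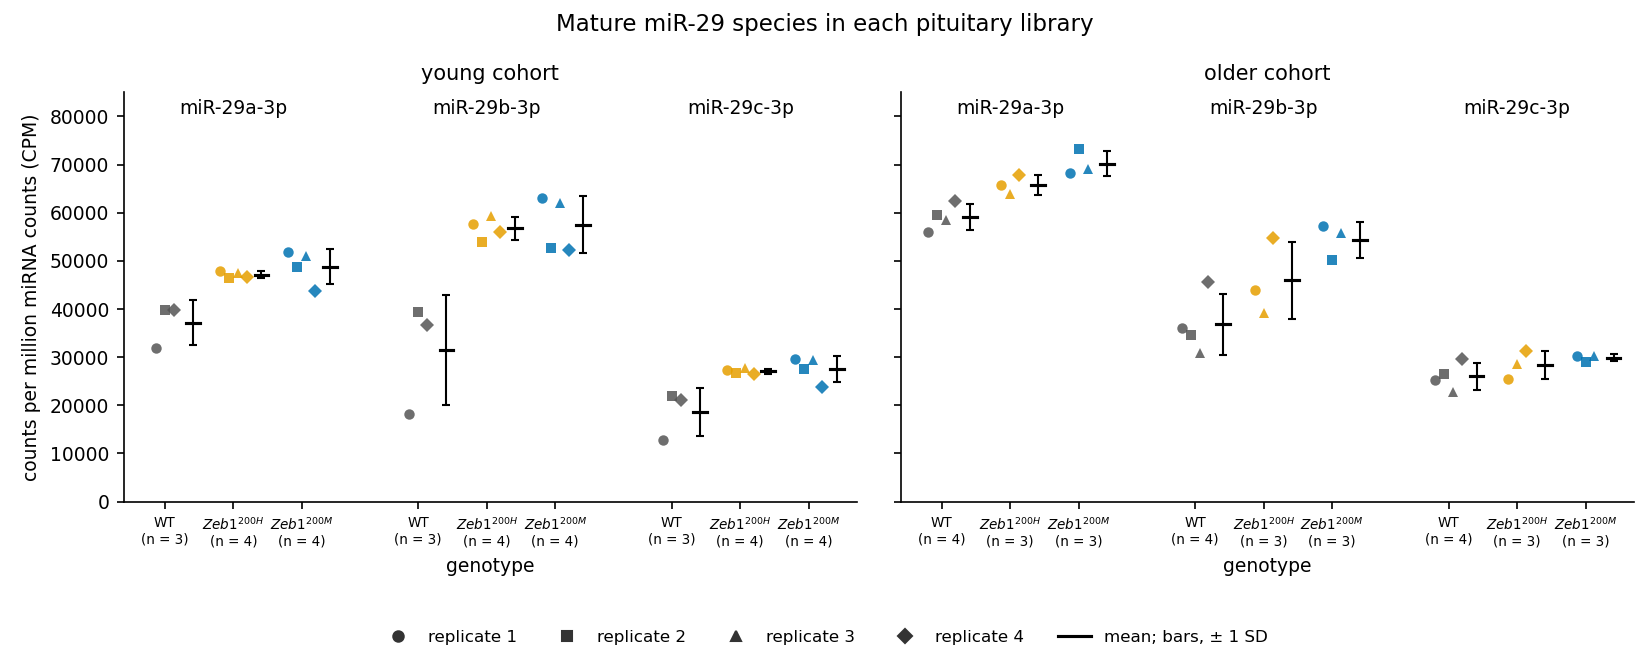
CPM of each miR-29 member (vertical axis) in each library, by genotype (horizontal axis) in the young (left) and older (right) cohort; symbols mark the replicate number of the labels, black lines the group mean, and bars 1 SD. Young WT libraries lie below all young mutant libraries for each member, with WT replicate 1 lowest (18298 CPM of miR-29b-3p), and the older groups overlap for miR-29c-3p.

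miR-29b-3p, the member made from both clusters, had the largest fold changes of the members against WT. In young WT pituitaries it was at 18298, 39405, and 36774 CPM (replicates 1, 2, and 4). In young *Zeb1 200H* it was at 57633, 53844, 59387, and 56088 CPM, and in young *Zeb1 200M* at 63078, 52696, 62106, and 52307 CPM. All 8 mutant libraries were above all 3 WT libraries, WT replicate 1 was far below the other WT libraries, and the mutant genotypes overlapped. The means were 31492 ± 11502 CPM (SD, n = 3) in WT, 56738 ± 2353 (n = 4) in *Zeb1 200H*, and 57547 ± 5841 (n = 4) in *Zeb1 200M*. The separation held after TMM scaling, with 29722 to 41782 CPM in WT and 47082 to 59241 CPM in *Zeb1 200M*.

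In the edgeR fit, miR-29b-3p differed by a log_2_ fold change of 0.54 (95% CI 0.17 to 0.90; adjusted *P* = 0.0973) between young *Zeb1 200M* and WT, and by 0.57 (0.23 to 0.91; adjusted *P* = 0.0677) between young *Zeb1 200H* and WT. Neither passed the threshold. Both were past it in DESeq2 (0.53, adjusted *P* = 0.0488, and 0.56, adjusted *P* = 0.0331) and without WT replicate 1, where the difference was smaller but the WT libraries were closer together (0.44, adjusted *P* = 0.00431, and 0.45, adjusted *P* = 0.000774). The sign was positive in all 15 alternatives of each comparison, and adjusted *P* ranged from 0.00431 to 0.529 for *Zeb1 200M* and from 0.000515 to 0.461 for *Zeb1 200H*. Without WT replicate 1 the number of miRNAs called rose from 44 to 168 for *Zeb1 200M* and from 34 to 151 for *Zeb1 200H*, so the wider calling was general.

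In the older cohort, miR-29b-3p rose in *Zeb1 200M* pituitaries. Its levels were 36073, 34686, 30787, and 45688 CPM in WT (36809 ± 6328, SD, n = 4). They were 57263, 50181, and 55794 CPM in *Zeb1 200M* (54413 ± 3738, n = 3), all above the highest WT library. The log_2_ fold change was 0.33 (95% CI 0.10 to 0.56; adjusted *P* = 0.0245), the only call for a member in any of the 6 comparisons. After TMM scaling the groups overlapped, because WT replicate 4, at 51159 CPM, was above *Zeb1 200M* replicate 2, at 47141 CPM. The call was lost in DESeq2 (0.30, adjusted *P* = 0.0606) and without WT replicate 1 (0.32, adjusted *P* = 0.0538), WT replicate 3 (0.25, adjusted *P* = 0.108), or *Zeb1 200M* replicate 1 (0.29, adjusted *P* = 0.157), and over 15 alternatives adjusted *P* ranged from 0.000111 to 0.157.

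Only the mean of older *Zeb1 200H* fell between the other genotypes. The libraries held 43972, 39093, and 54819 CPM of miR-29b-3p (45961 ± 8050, SD, n = 3), of which replicates 1 and 3 lay inside the WT range and replicate 4 inside the *Zeb1 200M* range. The log_2_ fold change was 0.15 against WT (95% CI −0.12 to 0.41; adjusted *P* = 0.483), and between 0.01 and 0.28 with any single library left out. From *Zeb1 200H* to *Zeb1 200M* it was 0.20 (0.01 to 0.39; unadjusted *P* = 0.0432, adjusted *P* = 0.296), which did not pass, and between 0.11 and 0.35 with any single library left out. In order of mean CPM, WT was lowest and *Zeb1 200M* highest in each cohort, but *Zeb1 200H* and *Zeb1 200M* of the young cohort, and *Zeb1 200H* and either neighbour in the older cohort, did not differ beyond their spread.

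miR-29a-3p, made from the chromosome 6 cluster, was the most abundant member in the young WT libraries and in every older library. In young pituitaries it was at 31852, 39855, and 39807 CPM in WT, at 47973, 46353, 47463, and 46704 CPM in *Zeb1 200H*, and at 51782, 48709, 51034, and 43706 CPM in *Zeb1 200M*. In older pituitaries it was at 56080, 59463, 58542, and 62405 CPM in WT, at 65707, 63811, and 67924 CPM in *Zeb1 200H*, and at 68226, 73146, and 69188 CPM in *Zeb1 200M*. No mutant library overlapped WT in either cohort, and older *Zeb1 200M* libraries were all above older *Zeb1 200H* libraries. Relative to the bulk of miRNAs these gaps closed. After TMM scaling young WT held 40606 to 51740 CPM and young *Zeb1 200M* 40957 to 48632 CPM, and the highest value was that of WT replicate 1.

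The log_2_ fold change of miR-29a-3p was −0.01 (95% CI −0.33 to 0.31; adjusted *P* = 0.986) for *Zeb1 200M* and −0.01 (−0.31 to 0.30; adjusted *P* = 0.988) for *Zeb1 200H* against WT in the young cohort, and with library totals it was 0.39 and 0.34. Without WT replicate 1 these values were 0.13 (adjusted *P* = 0.196) and 0.11 (adjusted *P* = 0.218), the lowest adjusted *P* of any alternative being 0.103 and 0.164. For the older cohort it was 0.02 (−0.17 to 0.20; adjusted *P* = 0.921) and −0.02 (−0.20 to 0.17; adjusted *P* = 0.931). With library totals the older values were 0.25 and 0.16, and that for *Zeb1 200M* was then called (adjusted *P* = 0.0159, in a range of 0.0159 to 0.999 over its alternatives), beside the shift of 0.23 in the median of all miRNAs.

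miR-29c-3p, made from the chromosome 1 cluster, was the least abundant member in every library. In young pituitaries it was at 12821, 21885, and 21124 CPM in WT, at 27392, 26620, 27697, and 26552 CPM in *Zeb1 200H*, and at 29649, 27547, 29401, and 23800 CPM in *Zeb1 200M*. In older pituitaries it was at 25319, 26523, 22772, and 29523 CPM in WT, at 25418, 28582, and 31274 CPM in *Zeb1 200H*, and at 30343, 28988, and 30331 CPM in *Zeb1 200M*. Young mutant libraries were all above young WT, with *Zeb1 200M* replicate 4 closest to WT, and the older groups overlapped. The young log_2_ fold changes against WT were 0.21 for *Zeb1 200M* (95% CI −0.09 to 0.50; adjusted *P* = 0.360) and 0.23 for *Zeb1 200H* (−0.03 to 0.50; adjusted *P* = 0.287), of which the second passed without WT replicate 1 (0.20, adjusted *P* = 0.0451, in a range of 0.0412 to 0.666). The older ones were −0.03 (−0.23 to 0.16; adjusted *P* = 0.835) and −0.05 (−0.27 to 0.18; adjusted *P* = 0.828), and they turned to 0.20 and 0.13 with library totals.

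Of the members, 0 of 3 members were called by edgeR between young *Zeb1 200M* and WT, where 6.49% of 678 miRNAs were called, and 0 of 3 between young *Zeb1 200H* and WT, where 5.06% of 672 were called. In each comparison 1 member, miR-29b-3p, was below 0.05 before adjustment, where 150 of 678 and 131 of 672 miRNAs were. DESeq2 called 1 member in each comparison, and 87 and 66 miRNAs in all. CPM did not overlap for 3 of 3 members in each, against 35.1% and 33.2% of miRNAs, most of which were also higher in the mutant (207 of 238 and 191 of 223). In the older cohort 1 of 3 was called between *Zeb1 200M* and WT, where 35.9% of 276 miRNAs were called, and 2 of 3 did not overlap, against 42.4%. Between older *Zeb1 200H* and WT 0 of 3 were called, where 12.0% of 267 were called, and 1 of 3 did not overlap, against 29.6%. That comparison had 0 members below 0.05 before adjustment, where 73 of 267 miRNAs were, and 0 called by DESeq2, which called 25 miRNAs in all. The share of members called was near the share of all miRNAs called in each case, which with 3 members says little.

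Between the mutant genotypes no member was called. In the young cohort the log_2_ fold changes from *Zeb1 200H* to *Zeb1 200M* were −0.01 for miR-29a-3p (95% CI −0.13 to 0.12), −0.04 for miR-29b-3p (−0.19 to 0.12), and −0.03 for miR-29c-3p (−0.17 to 0.12), and all 3 were positive with library totals (0.05, 0.02, and 0.03). Of the members, 0 of 3 were called and 0 of 3 did not overlap, where 2.22% and 7.85% of 675 miRNAs did. None was below 0.05 before adjustment, where 63 of 675 miRNAs were, and DESeq2 called 0 members and 20 miRNAs in all. The older values were 0.05 (−0.13 to 0.23), 0.20, and 0.03 (−0.17 to 0.23). There 0 of 3 were called, where 1.09% of 274 miRNAs were called. Before adjustment 1 member was below 0.05, where 40 of 274 miRNAs were, and DESeq2 called 0 members and 3 miRNAs in all. miR-29a-3p was the 1 of 3 that did not overlap, against 18.6% of miRNAs. Comparisons within a cohort share libraries, so their values are given side by side and not as independent results.

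As a list, the members had a median log_2_ fold change from WT of 0.21 in young homozygotes and 0.23 in young heterozygotes, beside 0.00 and 0.01 over all miRNAs tested. The older medians were 0.02 and −0.02, beside 0.00 and 0.00. From *Zeb1 200H* to *Zeb1 200M* they were −0.03 in the young and 0.05 in the older cohort, beside −0.01 and 0.02.

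**Figure D2:**
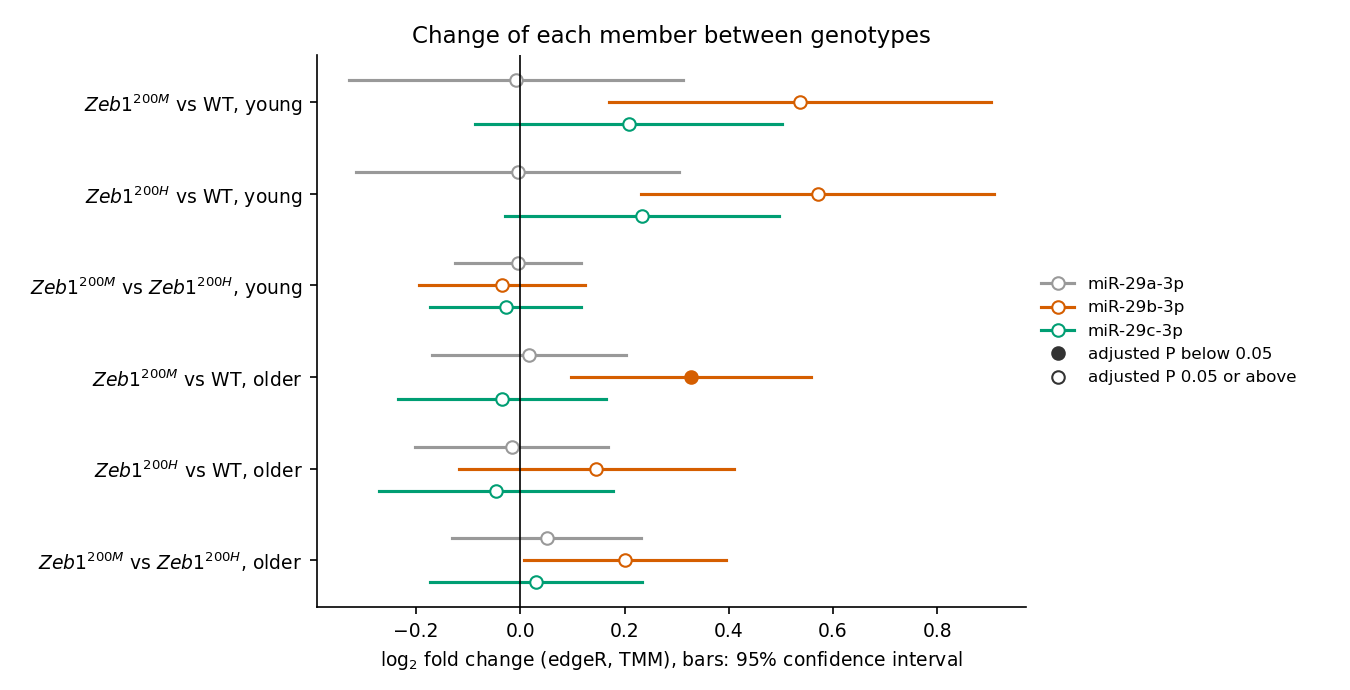
Log_2_ fold change from edgeR (horizontal axis) of each member in the 6 comparisons (vertical axis), with the 95% confidence interval; filled symbols passed an adjusted *P* of 0.05. Only miR-29b-3p of older *Zeb1 200M* against WT passed (0.33), and the values of miR-29a-3p near 0 in young mutants against WT (−0.01 and −0.01), like those of miR-29c-3p in older mutants (−0.03 and −0.05), turn positive when libraries are scaled by their totals.

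The ratio of members within a library does not depend on scaling between libraries. In young WT pituitaries miR-29b-3p was at 0.574, 0.989, and 0.924 of the miR-29a-3p count. In young *Zeb1 200H* the ratio was 1.20, 1.16, 1.25, and 1.20, and in young *Zeb1 200M* it was 1.22, 1.08, 1.22, and 1.20. miR-29a-3p was thus the more abundant in every young WT library and miR-29b-3p in every young mutant library, without overlap. The mean log_2_ ratio differed from WT by 0.55 in homozygotes and 0.58 in heterozygotes (higher in 4 of 4 libraries each). In a two-sided exact permutation test *P* was 0.0286 for each, the smallest that 3 against 4 libraries allow, and 0.114 after adjustment over 12 tests, so neither passed. Even fully separated groups could pass only if most of the 12 tests were at this smallest *P*, so the outcome says little. Without WT replicate 1 the differences were 0.30 and 0.33, and 2 against 4 libraries cannot reach 0.05.

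In older WT pituitaries the ratio of miR-29b-3p to miR-29a-3p was 0.643, 0.583, 0.526, and 0.732. It was 0.669, 0.613, and 0.807 in *Zeb1 200H*, and 0.839, 0.686, and 0.806 in *Zeb1 200M*. All older libraries had more miR-29a-3p than miR-29b-3p, and *Zeb1 200M* replicate 2 lay inside the WT range. The log_2_ ratio differed between *Zeb1 200M* and WT by 0.33 (higher than every WT library in 2 of 3; exact permutation *P* = 0.114, adjusted *P* = 0.274). For *Zeb1 200H* against WT it differed by 0.17 (exact permutation *P* = 0.314, adjusted *P* = 0.471), and for *Zeb1 200M* against *Zeb1 200H* by 0.16 (exact permutation *P* = 0.300, adjusted *P* = 0.471), where 3 against 3 libraries cannot go below 0.1. With any single library left out, these differences ranged from 0.25 to 0.42, from 0.05 to 0.25, and from 0.08 to 0.27, in the order given.

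miR-29c-3p kept closer to miR-29a-3p. The ratio was 0.403, 0.549, and 0.531 in young WT, between 0.569 and 0.584 in young *Zeb1 200H*, and between 0.545 and 0.576 in young *Zeb1 200M*. Only WT replicate 1 was far from the rest. The log_2_ ratio differed from WT by 0.23 in *Zeb1 200H* (exact permutation *P* = 0.0286, adjusted *P* = 0.114) and by 0.21 in *Zeb1 200M* (exact permutation *P* = 0.0571, adjusted *P* = 0.171), and without WT replicate 1 by 0.09 and 0.06. In the older cohort the ratio was 0.387 to 0.473 over all 10 libraries, and its differences between genotypes were −0.04, −0.03, and −0.02 on the log_2_ scale (lowest exact permutation *P* = 0.571). Expressed as a share of the family, miR-29c-3p made up 18.8% to 22.0% in all 21 libraries. Its mean share was 21.2% in young WT, 20.7% in young *Zeb1 200H*, and 20.6% in young *Zeb1 200M*, so on this measure the direction of the young differences turned. miR-29b-3p made up 35.2% ± 5.38 (SD, n = 3) in young WT and 43.3% ± 0.687 and 42.9% ± 1.381 (n = 4 each) in young *Zeb1 200H* and *Zeb1 200M*, while in the older cohort it was 30.03% ± 2.50 (n = 4), 32.6% ± 2.93 (n = 3), and 35.2% ± 2.00 (n = 3).

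**Figure D3:**
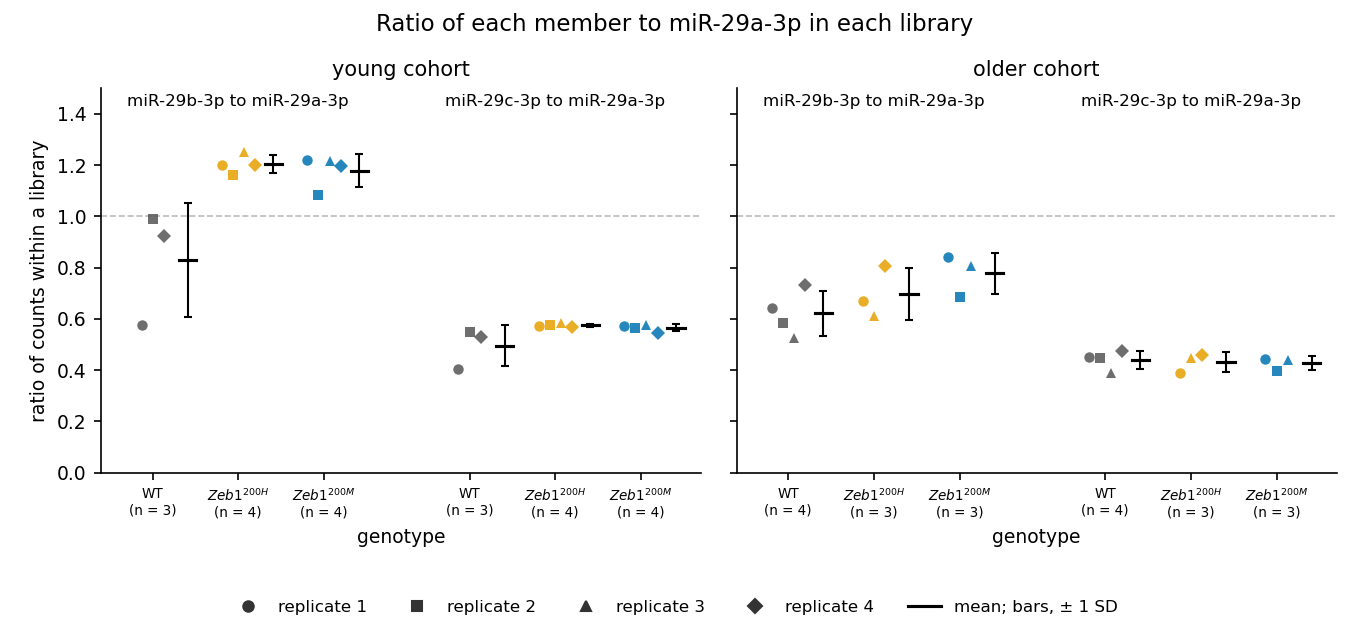
Ratio of the counts of miR-29b-3p and of miR-29c-3p to those of miR-29a-3p (vertical axis, no unit) in each library, by genotype (horizontal axis) in the young (left) and older (right) cohort; symbols mark replicate numbers, black lines the mean, bars 1 SD, and the dashed line equal counts. miR-29b-3p is below miR-29a-3p in all young WT libraries (0.574 to 0.989) and above it in all young mutant libraries (1.08 to 1.25), and it is below in all older libraries.

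Whether genotype acted differently in the cohorts was tested as an interaction in edgeR over 566 miRNAs named in both tables. For miR-29b-3p the change from WT was lower in the older than in the young cohort by a log_2_ difference of −0.20 for *Zeb1 200M* (95% CI −0.65 to 0.25; adjusted *P* = 0.842) and −0.43 for *Zeb1 200H* (−0.88 to 0.01; unadjusted *P* = 0.0567, adjusted *P* = 0.555). With any single library left out, these ranged from −0.41 to −0.05 and from −0.65 to −0.27, in both cases nearest 0 without young WT replicate 1. The *Zeb1 200M* to *Zeb1 200H* difference changed by 0.23 (−0.21 to 0.68; adjusted *P* = 0.974). For miR-29c-3p the values against WT were −0.23 (−0.56 to 0.10) and −0.29 (−0.62 to 0.04), and for miR-29a-3p they were 0.03 (−0.27 to 0.33) and −0.02 (−0.32 to 0.28). None of the members passed in any of the 3 interactions, where 0% of miRNAs were called in each, with 44, 49, and 16 below 0.05 before adjustment. DESeq2 was not run for this test. A difference between the cohorts was not shown, and the intervals for miR-29b-3p allow a sizeable one.

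The other arms of the hairpins, which are released when the mature strand is loaded into Argonaute, were rare. The listed 3p strand made up at least 98.9% of the counts of its hairpin or hairpins in every library. The arm miR-29a-5p was at 130 to 459 CPM in the young and 409 to 797 CPM in the older cohort, and miR-29c-5p at 82.3 to 210.4 and 123 to 263 CPM. For miR-29b the arms tell the hairpins apart. miR-29b-2-5p, from chromosome 1, was at 92.8 to 142.1 CPM in the young and 81.8 to 233.5 CPM in the older cohort, and miR-29b-1-5p, from chromosome 6, at 25.5 to 49.0 and 26.1 to 97.7 CPM. miR-29b-1-5p had 4 to 12 counts in older libraries and was not tested there.

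In young pituitaries miR-29b-2-5p was at 92.8, 93.1, and 95.6 CPM at the lowest, middle, and highest WT library, at 115 to 126 CPM in *Zeb1 200H*, and at 125 to 142 CPM in *Zeb1 200M*. WT libraries were lowest, without overlap. Relative to the bulk of miRNAs the log_2_ fold change against WT was 0.05 in *Zeb1 200M* (adjusted *P* = 0.903) and −0.03 in *Zeb1 200H* (adjusted *P* = 0.952), and with library totals 0.48 (adjusted *P* = 0.0826) and 0.35 (adjusted *P* = 0.216). Without WT replicate 1 they were 0.34 (adjusted *P* = 0.0223, in a range of 0.0223 to 0.980 over the alternatives) and 0.23 (adjusted *P* = 0.0954, in a range of 0.0954 to 0.992), so the first was then called, as it was in limma voom (0.30, adjusted *P* = 0.0417). miR-29b-1-5p was at 30.8 ± 1.60 CPM in *Zeb1 200M* (SD, n = 4) and 33.8 ± 13.2 CPM in WT (n = 3), where WT replicate 1 held the highest value. Its log_2_ fold changes against WT, −0.63 in *Zeb1 200M* and −0.66 in *Zeb1 200H* (adjusted *P* = 0.339 and 0.349), became 0.07 and 0.02 without that library. Those of miR-29a-5p went from 0.26 and 0.27 to 0.05 and 0.04. In older pituitaries miR-29b-2-5p, at 8 to 34 counts, was at a mean of 157 CPM in WT, 120 in *Zeb1 200H*, and 183 in *Zeb1 200M*. Its log_2_ fold change there was −0.57 in *Zeb1 200H* against WT (adjusted *P* = 0.214; −0.80 to −0.33 over 15 alternatives). It was −0.01 in *Zeb1 200M* against WT (adjusted *P* = 0.987) and 0.58 from *Zeb1 200H* to *Zeb1 200M* (adjusted *P* = 0.405). By edgeR 0 of 4 arms were called in each young comparison and 0 of 3 tested arms in each older comparison, with 0 below 0.05 before adjustment and 0 called by DESeq2. In these comparisons 1.09% to 35.9% of all miRNAs were called, 40 to 150 were below 0.05 before adjustment, and DESeq2 called 3 to 87. Beside this, 0 of so few arms says little. Among alternatives, miR-29a-5p of older *Zeb1 200M* against WT (0.30, adjusted *P* = 0.156) was called with library totals (0.54, adjusted *P* = 0.0109) and without WT replicate 4 (0.43, adjusted *P* = 0.0471).

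The marker miRNAs of pituitary cell types moved with genotype too, and their part in the miR-29 values was not tested. None of the 8 endocrine and epithelial miRNAs was at 0 in any library. The same held for the neuronal, the blood and immune, and the fibroblast, smooth muscle, and endothelial lists. With miR-7a-5p the most abundant, the 8 endocrine and epithelial miRNAs had the highest summed CPM of the lists in every group. Their sum was 437745, 325207, and 328495 CPM in young WT, 277446, 264772, 291587, and 276536 CPM in young *Zeb1 200H*, and 238785, 263430, 242181, and 287092 CPM in young *Zeb1 200M*. Older sums were 349386 to 378141 CPM in WT, 276713 to 301746 CPM in *Zeb1 200H*, and 254108 to 268460 CPM in *Zeb1 200M*. WT was highest without overlap, and young WT replicate 1, which had the least miR-29, had the most. The 5 members of the miR-200 superfamily on the list fell in all comparisons of mutants with WT, and miR-375-3p fell in both older ones and miR-7a-5p in older *Zeb1 200M*. This made 5 of 8 in each young comparison with WT, where 6.49% (*Zeb1 200M*) and 5.06% (*Zeb1 200H*) of all miRNAs were called, and 7 of 8 and 6 of 8 in the older ones, where 35.9% and 12.0% were. In both young comparisons with WT only the miR-200 superfamily was called on this list, and miR-7a-5p and miR-375-3p were not. The paper describes this superfamily as repressed by ZEB1 itself. Its fall, which also enters the summed CPM, cannot by itself be read as a change in endocrine cells.

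The summed CPM of the neuronal miRNAs was higher in mutants, with miR-124-3p the most abundant, and part of the rise follows the scaling described above. This sum was 1800, 4824, and 5309 CPM in young WT (replicates 1, 2, and 4), 7858, 8268, 8245, and 8631 CPM in young *Zeb1 200H*, and 11976, 10587, 11853, and 8895 CPM in young *Zeb1 200M*. Older sums were 6302, 5837, 5839, and 6689 CPM in WT, 11172, 8745, and 10577 CPM in *Zeb1 200H*, and 15593, 15782, and 15544 CPM in *Zeb1 200M*. The genotypes did not overlap in either cohort, and WT replicate 1 of the young cohort was again lowest. miR-124-3p rose in all 6 comparisons. In the young tables its isoforms are 2 of the 7 names listed, and these 2 were the only ones called in either mutant against WT, where 6.49% (*Zeb1 200M*) and 5.06% (*Zeb1 200H*) of all miRNAs were called. Of the 5 tested in the older cohort, 3 rose in *Zeb1 200M* against WT (miR-124-3p, miR-137-3p, and miR-9-5p) and 1, miR-124-3p, in *Zeb1 200H*, where 35.9% and 12.0% of all miRNAs were called.

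miRNAs of fibroblasts, smooth muscle, and endothelium, cells of the connective tissue and vessels, summed to 3388 ± 839 CPM (SD, n = 3), 4944 ± 714 (n = 4), and 5473 ± 1075 (n = 4) in young WT, *Zeb1 200H*, and *Zeb1 200M*, and to 10537 ± 207 (n = 4), 13858 ± 795 (n = 3), and 15572 ± 771 (n = 3) in the older cohort. In older *Zeb1 200M* against WT, where 35.9% of 276 miRNAs were called (56 higher), 4 of 6 tested rose (miR-126a-3p, miR-126a-5p, miR-143-3p, and miR-145a-5p). miR-145a-5p was the 1 of 5 that rose in young *Zeb1 200M*, where 6.49% of 678 were called, and in *Zeb1 200H* against WT 0 of 5 were called in each cohort, where 5.06% (young) and 12.0% (older) of all miRNAs were. Glial miRNAs, led by miR-338-3p, summed to 558, 779, and 800 CPM in young WT, *Zeb1 200H*, and *Zeb1 200M* and to 992, 1476, and 1612 CPM in the older groups, where miR-219a-2-3p was at 0 in 7 of 10 libraries. Relative to the bulk of miRNAs, the 2 tested in the young cohort had a median log_2_ fold change of −0.19 in *Zeb1 200M* and −0.09 in *Zeb1 200H* against WT. A median of 2 miRNAs does not show how their sum moved. Of these, 0 of 2 were called, where 6.49% and 5.06% of all miRNAs were. miR-338-3p was the 1 of 2 tested that rose in older *Zeb1 200M* against WT, where 35.9% were called. Blood and immune miRNAs, led by miR-451a, summed to 7200, 11648, and 9594 CPM in the young and 6597, 7779, and 8888 CPM in the older groups, and 2 of 3 tested (miR-144-3p and miR-223-3p) rose in older *Zeb1 200M* against WT, where 35.9% of all miRNAs were called. In each of the other 5 comparisons, where 1.09% to 12.0% of all miRNAs were called, 0 of this list were.

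Across libraries the members tracked one another to different degrees. Over the 11 young libraries, Pearson's *r* of log_2_ TMM-scaled CPM was 0.911 between miR-29b-3p and miR-29c-3p, 0.238 between miR-29a-3p and miR-29c-3p, and −0.08 between miR-29a-3p and miR-29b-3p. Without WT replicate 1 these were 0.912, 0.974, and 0.874. Over the 10 older libraries they were 0.600, 0.461, and 0.523. The libraries pool 3 genotypes, so these values hold differences between genotypes as well as between mice.

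With the members among them, 154 miRNAs had enough counts in both cohorts for a ranking. Those from outside the miR-29 hairpins were ranked by the lower of their *r* values in the young (n = 11) and older (n = 10) libraries. miR-33-5p (0.797), miR-384-3p (0.795), and miR-598-3p (0.793) were most like miR-29b-3p, and without young WT replicate 1 these values were 0.797, 0.759, and 0.742. For miR-29a-3p they were miR-879-5p (0.720), miR-181c-5p (0.453), and miR-708-5p (0.435), but the likeness to miR-181c-5p turned to −0.503 without that library. For miR-29c-3p they were miR-339-5p (0.676), miR-376a-3p (0.561), and miR-136-3p (0.550), and without it 0.659, 0.182, and 0.350. None of these shares the miR-29 seed where a reference sequence was found.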

How the data were processed

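Small-RNA-seq counts of 21 female pituitaries were used. To make the counts, the authors removed adapters (cutadapt) and low-quality reads, matched the first 19 nt (young, TargetScanMouse, without mismatch) or 18 nt (older, a dictionary based on miRBase, mismatch rule not stated) of each read to miRNAs, and removed size standards and spike-ins. The deposited raw counts are not labelled as such, and their unit was read from the values, which are whole numbers and identical in the 2 tables that hold each library. The 42 deposited columns of counts divided by a size factor, and the authors' comparison columns, were not used. Libraries held 3816917 to 10806313 counts (young) or 60037 to 191650 (older).

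Each pair of genotypes was fitted in R 4.3.3 with edgeR 4.0.16 (TMM, filterByExpr at its count minimum of 10 and total of 15, quasi-likelihood F test), with Benjamini-Hochberg adjustment over all miRNAs tested and a threshold of 0.05. The fit was tested on simulated data. Ratios were compared in Python 3.11.15 by two-sided exact permutation tests over all relabelings, adjusted over 12 tests. Intervals of levels are exact Poisson intervals of the count (scipy 1.17.1) and those of fold changes come from the edgeR fit. Figures were drawn with matplotlib 3.10.9. Alternatives were DESeq2 1.42.0, its size factors (RLE), library totals, no filter, TMM leaving out the miR-200 superfamily, one fit of 3 genotypes, limma 3.58.1 voom with sample weights, a replicate block, and each library left out.

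The text names the members, their other arms, rows with their seed, marker lists, and the 3 miRNAs most like each member (by the lower of the Pearson correlations within the 2 cohorts, prior count 0.5, mean of at least 50 counts). The results of the marker lists (endocrine and epithelial, neuronal, glial, blood and immune, and fibroblast, smooth muscle and endothelial) are in the report. Members and lists were chosen with earlier results of these data known.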

Additional observations from a re-analysis of the deposited data

Results flagged for a closer look

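For each member, each other arm, the family sum, and the ratios to miR-29a-3p, the farthest library of a group of 4 was judged by its gap to the nearest library as a share of the group's range. Of 30 such groups, 2 held a library far from the others, and chance gives about 1 in 20. miR-29c-5p of young *Zeb1 200M* was at 170 CPM in replicate 4, while the other libraries reached up to 206 CPM, a gap of 0.918 of the group's range. The ratio of miR-29b-3p to miR-29a-3p of young *Zeb1 200M* was 1.08 in replicate 2, while the other libraries reached up to 1.22, a gap of 0.843 of the range. Replicate 2 was still above the highest WT library, at 0.989. Groups of 3 libraries, young WT among them, were not examined this way.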

How the results depend on the processing

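Counting each member in each comparison and each alternative as 1 fold change, 112 kept their direction and their side of the threshold, 23 changed sign, 8 newly passed the threshold and 1 no longer did. With a library left out, 100 kept both, 20 changed sign, 3 newly passed and 3 no longer did. The changes are given below, and the cause was not tested. Most are values near 0 that changed sign without passing the threshold in either fit. Counting depth limits the other arms in the older cohort, where libraries held as few as 4 counts of miR-29b-1-5p, more than the members.

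miR-29b-3p in young pituitaries passed the threshold in DESeq2 (0.53 for *Zeb1 200M* and 0.56 for *Zeb1 200H* against WT; 87 and 66 miRNAs called), in one fit of the 3 genotypes (0.54 and 0.57; 90 and 67 called) and in limma voom with sample quality weights (0.42 and 0.45; 184 and 152 called). In that last fit miR-29c-3p of *Zeb1 200H* passed too (0.20). In older *Zeb1 200M* against WT, miR-29b-3p lost its call in DESeq2 (0.30), and miR-29a-3p gained one with library totals (0.25).

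In each of the next sentences values are in the order miR-29a-3p, miR-29b-3p and miR-29c-3p where several members are given. With library totals, changes turned positive for miR-29a-3p of young *Zeb1 200M* (0.39) and *Zeb1 200H* (0.34) against WT, for the members between young *Zeb1 200M* and *Zeb1 200H* (0.051, 0.020 and 0.028), for miR-29c-3p of older *Zeb1 200M* (0.20), and for miR-29a-3p and miR-29c-3p of older *Zeb1 200H* (0.16 and 0.13), where 69 miRNAs were called. Without a filter on low counts, miR-29a-3p was at 0.073 and 0.054 in young *Zeb1 200M* and *Zeb1 200H* against WT, at 0.0095 between them, and at −0.022 in older *Zeb1 200M* against WT. In limma voom it was at 0.11 and 0.11 in young mutants against WT, at 0.012 between them (miR-29c-3p at 0.00027), and at 0.0082 in older *Zeb1 200H* against WT. Between young *Zeb1 200M* and *Zeb1 200H* it was at 0.0030 in DESeq2, 0.0030 with size factors, 0.00097 with TMM computed without the miR-200 superfamily, and 0.0037 in one fit of the 3 genotypes, which called 5 miRNAs there. In DESeq2 it was at −0.014 in older *Zeb1 200M* against WT. Between older mutants limma voom called 5 miRNAs.

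Pairing of libraries by replicate number was not seen, which with so few libraries does not show that there was none. Once each genotype's mean was subtracted, the correlation of equally numbered libraries was between −0.218 and 0.180 over the 6 comparisons, and in none were all pairs above 0.1. With the replicate number as a block (replicate block), 20 and 18 miRNAs were called in young *Zeb1 200M* and *Zeb1 200H* against WT and 0 between older mutants. miR-29b-3p was then at 0.51 and 0.55 in the young cohort and at 0.49 in older *Zeb1 200M* against WT, and older miR-29c-3p turned to 0.068.

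Calls appeared for miR-29a-5p of older *Zeb1 200M* against WT with library totals (0.54) and without WT replicate 4 (0.43), and for miR-29b-2-5p of young *Zeb1 200M* against WT in limma voom (0.30) and without WT replicate 1 (0.34). For the other arms against WT, miR-29b-2-5p turned positive in young *Zeb1 200H* with library totals (0.35), no filter (0.037), limma voom (0.24) and the replicate block (0.0077), and in older *Zeb1 200M* with library totals (0.23), TMM without the miR-200 superfamily (0.019), one fit of the 3 genotypes (0.0038), limma voom (0.054) and the replicate block (0.098). miR-29b-1-5p did so in limma voom in young *Zeb1 200M* (0.045) and *Zeb1 200H* (0.0097). miR-29c-5p of older *Zeb1 200M* turned to −0.017 in DESeq2 and −0.020 without a filter, and miR-29a-5p of older *Zeb1 200H* to 0.11 with library totals. Between young mutants miR-29a-5p was at 0.041 with library totals, 0.00071 without a filter and 0.0044 in limma voom.

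As a share of the family in place of a ratio to miR-29a-3p, miR-29c-3p differed by −0.613 and −0.531 percentage points in young *Zeb1 200M* and *Zeb1 200H* against WT, while the share of miR-29b-3p was larger. Rescaled by TMM, the mean family sum was 143778 CPM in older *Zeb1 200M* and 124066 CPM in young *Zeb1 200H*.

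With each library left out in turn, the fold change in young *Zeb1 200M* against WT ranged from −0.052 to 0.13 for miR-29a-3p and from 0.44 to 0.64 for miR-29b-3p, with 25 to 168 miRNAs called. In young *Zeb1 200H* against WT it ranged from −0.064 to 0.11, from 0.45 to 0.68 and, for miR-29c-3p, from 0.20 to 0.28, with 21 to 151 called. Between young mutants the ranges were −0.038 to 0.042, −0.085 to 0.026 and −0.067 to 0.035. In older *Zeb1 200M* against WT they were −0.022 to 0.076, 0.25 to 0.48 and −0.096 to 0.065. In older *Zeb1 200H* against WT they were −0.037 to 0.020, 0.01 to 0.28 and −0.12 to 0.037. Between older mutants miR-29b-3p ranged from 0.11 to 0.35 and miR-29c-3p from −0.035 to 0.11, with 3 to 5 miRNAs called. Against WT, the arms ranged from −0.90 to 0.071 (miR-29b-1-5p) and −0.056 to 0.34 (miR-29b-2-5p) in young *Zeb1 200M*, from −0.92 to 0.024 and −0.15 to 0.23 in young *Zeb1 200H*, from −0.25 to 0.15 (miR-29b-2-5p) and −0.17 to 0.17 (miR-29c-5p) in older *Zeb1 200M*, and from −0.31 to 0.12 (miR-29a-5p) and −0.39 to 0.046 (miR-29c-5p) in older *Zeb1 200H*. miR-29a-5p ranged from −0.045 to 0.018 between young mutants.

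The difference between cohorts ranged from −0.11 to 0.068, −0.11 to 0.045 and −0.055 to 0.078 for miR-29a-3p (*Zeb1 200M* against WT, *Zeb1 200H* against WT, and *Zeb1 200M* against *Zeb1 200H*) and from −0.067 to 0.10 for miR-29c-3p between the mutants, with 0 to 1 miRNA called for *Zeb1 200M* against WT. For miR-29b-3p, in the same order, it ranged from −0.41 to −0.05, −0.65 to −0.27 and 0.11 to 0.35, and for miR-29c-3p against WT from −0.41 to −0.17 and −0.44 to −0.20. The log_2_ ratio of miR-29b-3p to miR-29a-3p differed between young mutants by −0.049 to 0.0086. That of miR-29c-3p differed by −0.10 to 0.0092 in older *Zeb1 200M* against WT, by −0.085 to 0.050 in older *Zeb1 200H* against WT, and by −0.093 to 0.037 between older mutants.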
